A study of Homo sapiens with 12 samples.

Results

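The genes described here are 10 origin licensing and firing factors, namely ORC1, ORC6, CDC6, CDT1, GMNN, CDC45, GINS1, GINS2, GINS3 and GINS4. They were chosen by symbol from the authors' gene table, and all 10 were found among its 19460 genes. Every one of them also passed the filter on low values, a mean of at least 0.5 FPKM, among 15869 genes that did. That mean was taken over both groups, and ORC1 passed only through its DMSO libraries (palbociclib mean 0.457 FPKM). The cells were T-47D, a human breast cancer cell line that expresses the oestrogen receptor, labelled wild type and obtained from ATCC. Palbociclib inhibits the kinases CDK4 and CDK6, and the drug group received it at 1 µM for 24 h while the controls received the solvent DMSO for 24 h (0.1% in the ATAC arm). Poly(A) RNA sequencing and ATAC-seq, in which a transposase cuts and tags open chromatin, each had 3 biological replicates per treatment. The comparison thus covers 1 cell line, 1 dose and 1 time.

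Before a cell can copy its DNA, the origin recognition complex (ORC) marks the starting sites, and CDC6 and CDT1 help it to load the ring-shaped MCM2-7 helicase there. Geminin, the product of GMNN, binds CDT1 and blocks a further round of loading once S phase has begun. At firing, CDC45 and the GINS complex, whose subunits are encoded by GINS1 to GINS4, join the loaded ring to form the active helicase. Many of these genes are textbook targets of E2F transcription factors, which the retinoblastoma protein restrains until CDK4 and CDK6 phosphorylate it.

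The promoter sequences of the factors on which the results turn are printed here, since accessibility was measured at these sites for CDC6, CDT1 and GINS1, and since the RNA of all 7 fell. They are RefSeq sequences on GRCh38.p14, read 5′ to 3′ on the strand of the gene. Capitals mark matches, on either strand, to the E2F-type letters TTTCCCG or TTTCGCG or TTTGCCG or TTTGGCG, or to these with a final C. For CDC6, CDT1 and GINS1 the sequence runs from 250 bases before the start site through the first 30 bases of the transcript. For CDC45, GINS2 and ORC1 it covers 60 bases before and 20 after the start, and for GMNN it begins 100 bases before the downstream of its 2 listed starts. CDC45 has 3 listed starts. For CDC45 and GMNN the start with the most matches was chosen for printing, and their other listed starts held 0 matches.
CDC6 promoter, 280 bases, chr17:40287629-40287908, + strand: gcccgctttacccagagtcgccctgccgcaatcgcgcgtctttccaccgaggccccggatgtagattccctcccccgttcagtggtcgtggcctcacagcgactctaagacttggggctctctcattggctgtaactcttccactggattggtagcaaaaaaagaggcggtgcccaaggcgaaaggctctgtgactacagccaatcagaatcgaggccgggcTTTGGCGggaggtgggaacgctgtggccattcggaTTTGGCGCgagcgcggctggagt
CDT1 promoter, 280 bases, chr16:88803539-88803818, + strand: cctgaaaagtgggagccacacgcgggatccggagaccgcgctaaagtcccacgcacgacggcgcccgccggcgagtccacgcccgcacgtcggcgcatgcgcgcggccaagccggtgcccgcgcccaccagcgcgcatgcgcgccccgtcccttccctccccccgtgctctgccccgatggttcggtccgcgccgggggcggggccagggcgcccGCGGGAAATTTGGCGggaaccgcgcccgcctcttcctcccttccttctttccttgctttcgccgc
GINS1 promoter, 280 bases, chr20:25407423-25407702, + strand: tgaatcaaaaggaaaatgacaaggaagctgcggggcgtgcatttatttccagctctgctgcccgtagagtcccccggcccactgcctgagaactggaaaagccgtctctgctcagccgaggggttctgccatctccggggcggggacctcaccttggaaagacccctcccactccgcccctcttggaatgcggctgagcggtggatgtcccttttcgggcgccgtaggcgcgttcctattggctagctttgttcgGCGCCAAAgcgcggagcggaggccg
CDC45 promoter, 80 bases, chr22:19479860-19479939, + strand: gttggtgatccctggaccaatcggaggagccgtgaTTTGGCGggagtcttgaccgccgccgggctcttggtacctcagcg
GINS2 promoter, 80 bases, chr16:85688935-85689014, - strand: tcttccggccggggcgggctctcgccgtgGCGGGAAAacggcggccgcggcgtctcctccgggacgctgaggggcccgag
GMNN promoter, 80 bases, chr6:24775313-24775392, + strand: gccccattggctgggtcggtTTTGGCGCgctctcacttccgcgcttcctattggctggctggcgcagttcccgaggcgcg
ORC1 promoter, 80 bases, chr1:52404404-52404483, - strand: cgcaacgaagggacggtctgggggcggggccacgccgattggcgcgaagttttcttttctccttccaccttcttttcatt

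Matches to these letters were present in 7 of the 9 factors with an entry in the promoter table, which holds 300 bases per start. Of all 35116 promoters in that table, 8.67% held a match, and of the 10994 genes that also had a tested RNA level, 16.2% had one in at least 1 promoter. The 8-letter forms, each of the 4 above with its final C, were found in 6 of 9 factors, in 3.31% of all promoters and in 6.68% of the genes with a tested RNA level. ORC1 and ORC6 were the 2 factors without a match, which says only that these letters are not in this window. In CDC6 one match lay 28 to 22 bases before the start and another at bases 8 to 15 on the transcript. In CDT1 a match on the opposite strand, 35 to 28 bases before the start, adjoined one on the gene's strand at 27 to 21 bases before it, so that the capitals run together. The CCAAT letters (either strand), the core of the NF-Y site, were in 7 of 9 factors, in 34.6% of all promoters and in 43.2% of the genes with a tested RNA level. The letters TTTGAA (either strand), a form of the cell cycle homology region of late cell cycle genes, were in 0 of 9 factors, in 15.2% of all promoters and in 13.3% of the genes with a tested RNA level. Of the other genes of origin licensing and firing considered below, 37 had an entry, and 20 of these held an E2F-type match of 7 letters.

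In the RNA libraries all 10 factors fell with palbociclib, and in none did the 2 groups overlap. The mean level left under the drug ranged from 6.52% of the DMSO mean for CDC45 to 30.6% for GINS3, with a median of 14.3%. In a limma fit over all 15869 genes, 10 of 10 factors were lower and 0 were higher at an adjusted p under 0.05, while 22.9% of all genes tested were lower and 20.9% were higher. The median log2 change of the factors was -2.34, against 0.00 over all genes. Log2 changes are on the scale of log2(FPKM + 1), where FPKM is a fragment count scaled to transcript length and library size, so they understate the fall of genes with low levels. Groups that do not overlap, with the drug group lower, were seen for 28.2% of all genes. A mean under the drug below 25% of the DMSO mean was seen for 9 of the 10 factors, all but GINS3, and for 1.89% of all genes. In these bulk libraries, fewer cells expressing a gene and less RNA per cell cannot be told apart.

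**Figure D1:**
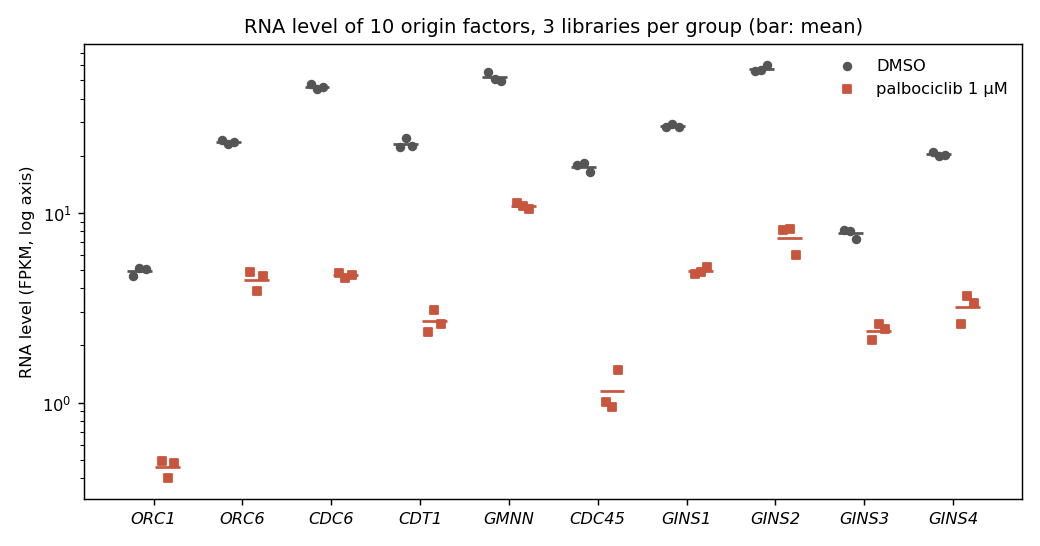
RNA level in FPKM (log axis) of each factor in 3 DMSO libraries (circles) and 3 palbociclib libraries (squares), with a bar at the group mean. Every palbociclib library lies below every DMSO library of the same gene, and the gap is widest for CDC45 (6.52% left) and narrowest for GINS3 (30.6% left).

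Among the ORC subunits, ORC1 is the large subunit whose protein is cyclically made and destroyed in human cells, and its RNA was the scarcest of the 10 factors. ORC1 stood at 4.63, 5.14 and 5.05 FPKM in DMSO replicates 1 to 3 and at 0.491, 0.399 and 0.481 FPKM in palbociclib replicates 1 to 3. All 3 drug libraries lay far below the controls, at 9.26% ± 1.02 (SD, n = 3) of the DMSO mean. They also lay under the 0.5 FPKM of the filter, which ORC1 passed only through its DMSO libraries. The log2 change was -2.03 ± 0.07 (SE), with a limma adjusted p of 1.24e-07, and the pseudocount of 1 FPKM compresses it because the drug level lies under 1 FPKM. In the authors' deposited table, which is built on counts, the log2 change of ORC1 was -3.43. The RefSeq gene model of ORC1 overlaps that of PRPF38A, a splicing factor gene, and the sources used here do not say whether reads were assigned by strand. PRPF38A moved from 24.6 ± 1.34 to 19.7 ± 1.53 FPKM.

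ORC6 is the smallest and least conserved ORC subunit. ORC6 read 24.4, 23.2 and 23.8 FPKM in the DMSO libraries and 4.85, 3.86 and 4.62 FPKM in the palbociclib libraries, so 18.7% of its level was left. Its log2 change was -2.19 ± 0.07 (SE, limma adjusted p = 6.50e-08). The share of RNA left was lower for ORC1 than for ORC6 in every drug library. Within each library, the ratio of ORC1 to ORC6 FPKM was 0.190, 0.222 and 0.213 in DMSO and 0.101, 0.103 and 0.104 with palbociclib. These ratios did not overlap between groups, and the log2 difference was -1.01, with an exact two-sided permutation p of 0.1, the smallest that 3 against 3 libraries can give (0.15 after Benjamini-Hochberg adjustment over the 6 ratios computed).

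The changes of the other ORC genes were smaller, with intervals that do not overlap those of ORC1 and ORC6. Of ORC2, ORC3, ORC4 and ORC5, only ORC3 was lower at an adjusted p under 0.05 in the limma fit, from 20.5 ± 0.52 to 12.5 ± 0.40 FPKM (60.7% left). ORC2 stood at 14.3, 12.7 and 17.6 FPKM in DMSO and 16.2, 12.5 and 15.2 FPKM with palbociclib, and the groups overlapped. The 95% intervals of the log2 change ran from -0.30 to 0.26 for ORC2, from -0.13 to 0.04 for ORC4 and from -0.18 to 0.04 for ORC5. The interval of ORC1 ran from -2.19 to -1.86, that of ORC6 from -2.35 to -2.02 and that of ORC3 from -0.78 to -0.58. LRWD1, which encodes an ORC-associated protein, had a log2 change of 0.10 (limma adjusted p = 0.228), and it was called higher only when the libraries were quantile normalized.

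The helicase loaders CDC6 and CDT1 were among the most reduced genes of the set. CDC6 is an ATPase that completes the ORC ring on DNA. CDC6 read 47.9, 45.2 and 46.0 FPKM in DMSO and 4.82, 4.52 and 4.72 FPKM with palbociclib, a 9.90-fold lower mean. Its log2 change of -3.06 ± 0.04 (SE, limma adjusted p = 5.79e-10) ranked 51 from the largest fall among all 15869 genes. CDT1 carries the MCM ring to ORC. CDT1 stood at 22.3, 24.7 and 22.7 FPKM in DMSO and at 2.36, 3.08 and 2.58 FPKM with palbociclib, so 11.5% was left. The log2 change of CDT1 was -2.72 ± 0.08 (SE, limma adjusted p = 3.05e-08), rank 92. The ratio of CDC6 to CDT1 was 2.00 ± 0.16 in DMSO and 1.78 ± 0.29 with palbociclib (SD, n = 3 each), and the groups overlapped (exact two-sided permutation p = 0.4).

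GMNN, which encodes the CDT1 inhibitor geminin, kept a larger share of its RNA than CDT1 did. GMNN read 55.3, 51.1 and 49.7 FPKM in DMSO and 11.2, 10.8 and 10.5 FPKM with palbociclib. A share of 20.9% of its level was left, and the log2 change was -2.16 ± 0.05 (SE, limma adjusted p = 6.24e-09). The ratio of CDT1 to GMNN RNA within a library was 0.402, 0.483 and 0.456 in DMSO and 0.210, 0.285 and 0.246 with palbociclib. Every drug library lay below every control, and the mean ratio went from 0.447 ± 0.041 to 0.247 ± 0.038 (SD, n = 3 each), a log2 difference of -0.86. The exact two-sided permutation p was 0.1, the smallest possible here, and 0.15 after adjustment over the 6 ratios. With 1 FPKM added to each gene the log2 difference was -0.56.

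**Figure D2:**
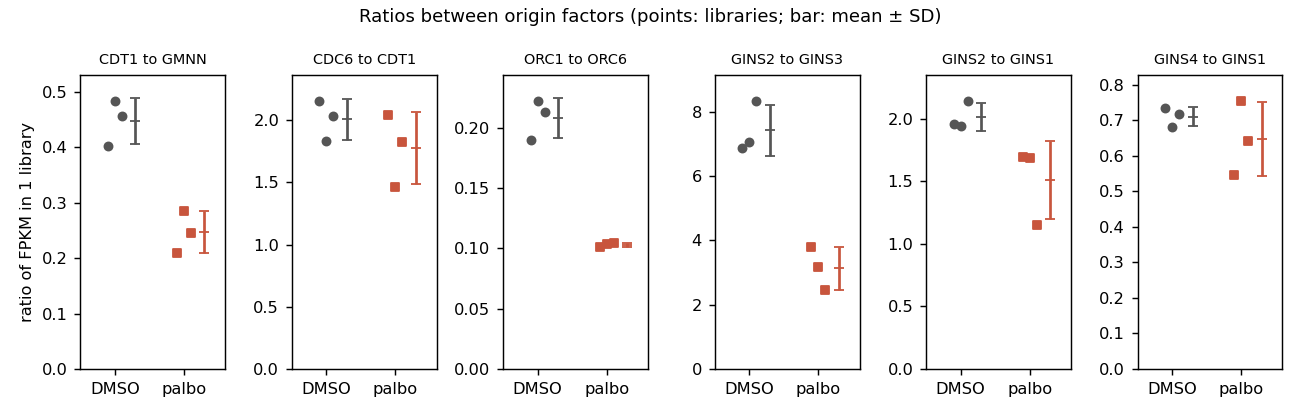
Ratio of FPKM between pairs of factors within each library (points), with the group mean ± SD beside them; each axis starts at 0. CDT1 to GMNN, ORC1 to ORC6, GINS2 to GINS3 and GINS2 to GINS1 do not overlap between DMSO and palbociclib, while CDC6 to CDT1 and GINS4 to GINS1 do.

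CDC45, the helicase activator, lost the largest share of its RNA among the 10 factors. CDC45 stood at 17.9, 18.3 and 16.4 FPKM in DMSO and at 1.00, 0.952 and 1.48 FPKM with palbociclib. Its drug libraries varied most of all the factors, with a coefficient of variation of 25.5% and replicate 3 above replicates 1 and 2. The mean fell 15.3-fold, and the log2 change was -3.12 ± 0.10 (SE, limma adjusted p = 4.69e-08), rank 48 of 15869. In the authors' deposited table the log2 change of CDC45 was -3.95, the largest fall of the 10.

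The 4 GINS genes encode subunits that assemble into 1 complex, yet they kept unequal shares of their RNA. GINS2 was the most abundant factor in DMSO, at 55.8, 56.9 and 60.5 FPKM, and read 8.09, 8.19 and 5.97 FPKM with palbociclib (12.9% left). GINS4 went from 20.9, 19.95 and 20.3 FPKM to 2.61, 3.66 and 3.34 FPKM (15.7% left). GINS1 went from 28.5, 29.3 and 28.3 FPKM to 4.78, 4.86 and 5.20 FPKM (17.2% left). The drug libraries of these 3 genes, taken as shares of the DMSO mean, overlap from gene to gene along this order. GINS3 was the exception, with 8.11, 8.05 and 7.27 FPKM in DMSO and 2.14, 2.58 and 2.44 FPKM with palbociclib. Its 3 drug libraries kept 27.4% to 33.1% of the DMSO mean, above every drug library of the other 9 factors. The log2 changes were -2.81 ± 0.10 for GINS2, -2.35 ± 0.09 for GINS4, -2.32 ± 0.05 for GINS1 and -1.38 ± 0.07 (SE) for GINS3, each with a limma adjusted p of 1.85e-06 or less.

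Within libraries, the GINS2 to GINS3 ratio moved from 6.88, 7.07 and 8.32 in DMSO to 3.78, 3.17 and 2.44 with palbociclib. The groups did not overlap, and the log2 difference was -1.26 (exact two-sided permutation p = 0.1, the smallest possible, and 0.15 after adjustment over the 6 ratios). GINS2 and GINS3 kept the smallest and largest shares of the 4 genes, so this ratio restates that difference. The share of all gene pairs whose ratios separate the groups was not computed. GINS2 to GINS1 went from 2.01 ± 0.11 to 1.51 ± 0.31 (SD, n = 3 each) without overlap, at the same exact p of 0.1 (0.15 after adjustment). GINS4 to GINS1 overlapped between the groups, at 0.710 ± 0.027 and 0.647 ± 0.104 (exact permutation p = 0.4). RefSeq places the gene GSE1 over part of GINS2, LOC105372581 over part of GINS1 and GPAT4-AS1 over part of GINS4. Reads from genes that overlap cannot be separated if strand was not used. GSE1 was abundant in both groups, at 178 ± 4.64 and 192 ± 5.04 FPKM.

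Ordered by the share of RNA left, the factors ran CDC45, ORC1, CDC6, CDT1, GINS2, GINS4, GINS1, ORC6, GMNN and GINS3. The drug libraries of neighbours in this order overlapped in all 8 of the first pairs, and only GMNN and GINS3 did not overlap. The order of levels in DMSO was sharper. It ran GINS2, GMNN, CDC6, GINS1, ORC6, CDT1, GINS4, CDC45, GINS3 and ORC1 from high to low, and of these neighbours only ORC6 and CDT1 overlapped. The coefficient of variation over DMSO libraries was 1.93% to 6.04% across the factors, and over palbociclib libraries 3.29% to 25.5%. The FPKM table holds no counts, but the authors' deposited table gives mean normalized counts, not split by treatment, from 608 for ORC1 to 4724 for GINS2. That authors' deposited table calls all 10 factors down, as it does 4.28% of its genes (adjusted p under 0.05 and log2 change under -1).

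A list of 43 further genes of origin licensing and firing shows where the 10 factors sit within the process. The list was chosen with earlier results of these data known. In the limma fit 34 of the 43 were lower and 0 were higher, and 9 were not called. Of the 34, CLSPN passed the filter on low values only through its DMSO libraries (mean 5.91 FPKM, and 0.285 FPKM with palbociclib). Of all 15869 genes tested, 22.9% were lower and 20.9% were higher. The median log2 change of the 43 was -1.31, against 0.00 over all genes. All 6 MCM2-7 helicase genes fell, with 13.2% (MCM5) to 29.5% (MCM7) of the level left. The 3 genes of the DBF4-dependent kinase, which phosphorylates the loaded helicase, also fell, and CDC7 kept 37.4%, DBF4 23.2% and DBF4B 23.9%. All 6 firing factors fell, from MCM10 with 3.82% left, through TICRR with 9.24% and RECQL4 with 14.6%, to TOPBP1 with 43.7%. RIF1, which counteracts firing, kept 53.9%.

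Genes for the turnover of licensing proteins divided. DTL, the adaptor by which the CUL4 ubiquitin ligase recognises CDT1, went from 24.3 ± 0.61 to 1.20 ± 0.06 FPKM (4.96% left). FBXO5 (11.8% left), CCNF (30.8%), SKP2 (45.3%) and USP37 (54.5%) also fell, as did FZR1 by a small margin (82.7% left, limma adjusted p = 0.0243). The call of FZR1 was lost with quantile normalization (limma adjusted p = 0.123) and without DMSO replicate 1 or 2 or palbociclib replicate 1 or 2 (0.0688 to 0.0838). Other components of the CUL4 ligase were not called. CUL4A stood at 98.6% of its DMSO level, CUL4B at 104% and DDB1 at 106%, with limma adjusted p of 0.805, 0.37 and 0.0556. With quantile normalization CUL4B and DDB1 were called higher, as DDB1 also was without DMSO replicate 3 or without palbociclib replicate 3. Outside the 10 factors, the genes that were not called were thus ORC2, ORC4, ORC5, LRWD1, MCM9, CUL4A, CUL4B, DDB1 and FBXO31.

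**Figure D3:**
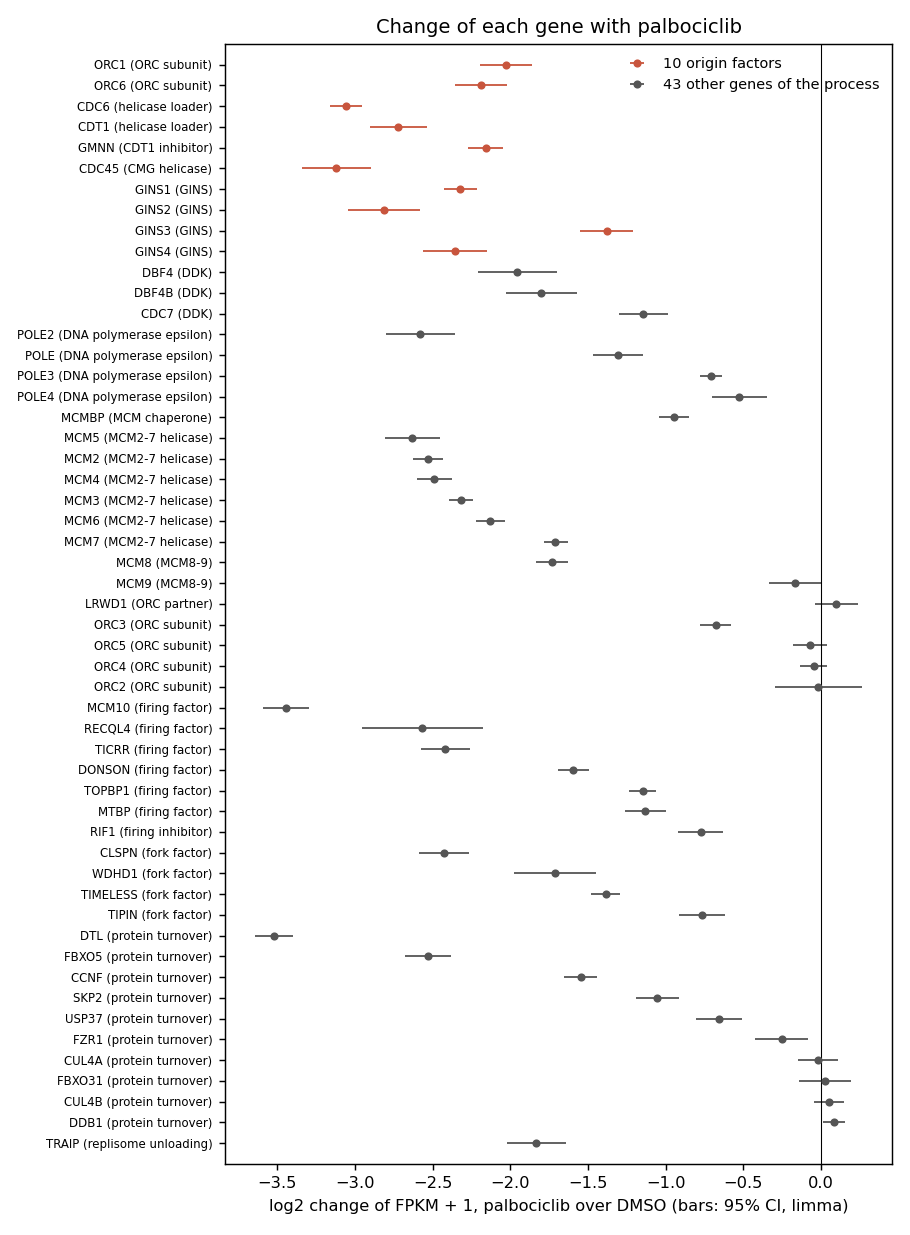
Log2 change of FPKM + 1 with palbociclib over DMSO for the 10 factors and 43 further genes of the process, with 95% confidence intervals from limma (3 libraries per group). All 10 factors lie between -3.12 and -1.38, while ORC2, ORC4, ORC5, LRWD1 and the CUL4 ligase genes CUL4A, CUL4B and DDB1 lie near 0.

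The genes whose RNA profile over the 6 libraries lay nearest to the median profile of the 10 factors were DIAPH3, RACGAP1, PHF19, TICRR and H2AX. Likeness was the Euclidean distance between log2(FPKM + 1) profiles centred on the DMSO mean, and these 5 had distances of 0.06, 0.15, 0.15, 0.16 and 0.16. The 10 factors themselves lay at 0.11 to 1.71 from their median profile. DIAPH3, a formin that nucleates actin, went from 9.65 ± 0.26 to 1.07 ± 0.09 FPKM. RACGAP1, a component of the central spindle, went from 102.6 ± 1.93 to 18.5 ± 0.40 FPKM. With 2 groups, this distance reflects mainly the size of the fall.

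The ATAC table lists 38121 peaks of open chromatin, and 6.46% of them were lower and 5.41% higher with palbociclib (edgeR quasi-likelihood test, adjusted p under 0.05). A listed peak lay within 1 kb of a start site in 4 factors, namely CDC6, CDT1, GINS1 and GINS4, which is 40% of the 10, against 44% of genes with a tested RNA level. Each of these 4 peaks covers the start site, and all 4 were lower and 0 higher. Of the 4695 peaks within 1 kb of the start of a gene with a tested RNA level, 11.4% were lower and 1.38% higher. No peak was listed within 1 kb of a start of ORC1, ORC6, GMNN, CDC45, GINS2 or GINS3, so their promoters gave no value. Within 5 kb, GINS2 gained a peak that overlapped between groups, at 86.5% of the DMSO mean (log2 change -0.21, edgeR adjusted p = 0.108).

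The GINS1 peak, chr20:25407239-25408061, changed most. It held 45.2, 43.4 and 45.7 CPM (counts scaled to the TMM-adjusted size of the library) in DMSO replicates 1 to 3 and 31.2, 28.0 and 28.7 with palbociclib, which is 65.5% of the control mean (log2 change -0.61, edgeR adjusted p = 8.88e-09). The CDT1 peak, chr16:88803305-88803954, held 32.7, 30.4 and 31.4 CPM in DMSO and 22.4, 21.8 and 23.1 with palbociclib (71.1%, log2 change -0.49, edgeR adjusted p = 2.32e-05). Both peaks separate the groups completely, and both hold the printed promoter sequences. The CDC6 peak, chr17:40287373-40288321, was stronger in every library and changed less, from 172, 173 and 180 to 138, 139 and 138 CPM (78.9%, log2 change -0.34, edgeR adjusted p = 1.04e-07). The GINS4 peak on chromosome 8 went from 184, 177 and 182 to 160, 157 and 161 CPM (88%, log2 change -0.18, edgeR adjusted p = 0.00362). Beside these shares, the RNA left was 10.1% for CDC6, 11.5% for CDT1, 17.2% for GINS1 and 15.7% for GINS4, below the share of accessibility left in each. The order of the 4 peaks by accessibility left was not the order of the 4 genes by RNA left.

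**Figure D4:**
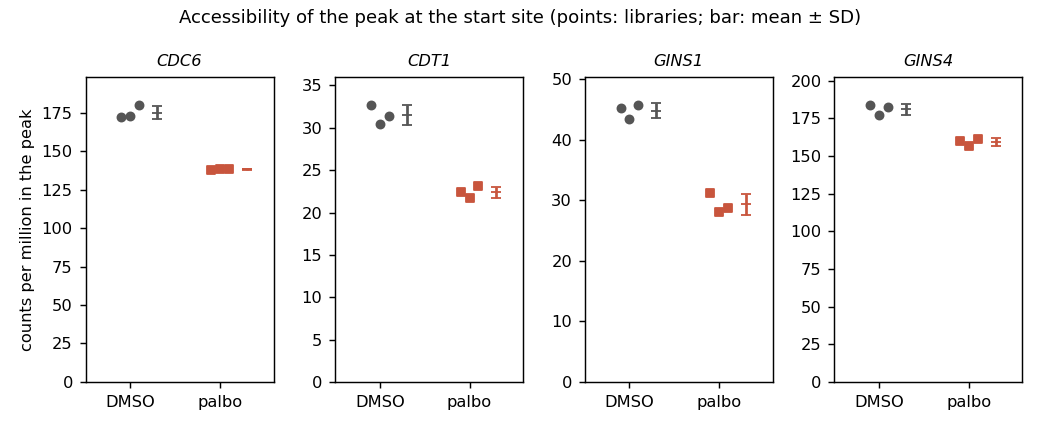
CPM (counts scaled to TMM-adjusted library sizes) in the ATAC peak at the start site of CDC6, CDT1, GINS1 and GINS4 in 3 DMSO (circles) and 3 palbociclib (squares) libraries, with mean ± SD; each axis starts at 0. In all 4 peaks the palbociclib libraries lie below the DMSO libraries, at 65.5% (GINS1) to 88% (GINS4) of the DMSO mean.

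Of the 43 further genes of the process, 18 had a peak within 1 kb of a start (41.9%, against 44% of genes with a tested RNA level). Of these peaks 8 were lower and 0 higher. Among such peaks of all genes with a tested RNA level, 11.4% were lower and 1.38% higher. The 8 lower peaks belonged to MCM2, MCM5, MCM8, MCM10, TICRR, WDHD1, POLE2 and POLE4. The POLE4 peak lost its call without DMSO replicate 2 or 3 (edgeR adjusted p = 0.0801 and 0.0507). POLE2, a subunit of the leading strand polymerase, changed most (64.2% of the DMSO mean, log2 change -0.64, edgeR adjusted p = 2.46e-07). The peaks of ORC3 and ORC5 overlapped between groups, at 99.9% and 103% of DMSO.

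Splicing of the factors was read from inclusion and skipping reads of 5 kinds of event. The deposited tables list 68 events in the 10 factors among 145447 in all, of which 37 are in GINS1 and 17 in CDC45, and ORC6 has none. Only 19 events had both a mean of 20 or more reads over the 6 libraries and 5% or more of the reads in the rarer form. They lay in GINS1 (11), CDC45 (5), GMNN, GINS3 and GINS4 (1 each). By the edgeR quasi-likelihood test with adjustment within event type, 0 of these 19 were called, against 0.35% of 37445 events in all genes. Of the 19, 5 passed the read minimum only through the DMSO libraries, and the remaining 14 had a mean of 20 or more reads in each group. At an unadjusted p under 0.05 there were 5 of 19, in CDC45 and GINS1, against 8.53% of all events. Some of these GINS1 events share their skipping reads, and the CDC45 event passed the read minimum only through DMSO. They are thus not independent observations. The authors' deposited tables give an FDR under 0.05 to 8 of the 68 events, 2 in CDC45 and 6 in GINS1, and to 2.47% of all events. Of those 8, 4 did not reach the read or minor form minimum, and some share their skipping reads. The 2 in CDC45 are forms of 1 exon and have the same skipping reads. Reads fell with the RNA level, so inclusion levels under palbociclib rest on few reads.

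In CDC45 an exon of 129 bases at chr22:19494474-19494602 was included at 9.29%, 11.1% and 6.87% in DMSO and at 4.60%, 0% and 0% with palbociclib. The groups do not overlap, and the mean went from 9.08% ± 2.11 to 1.53% ± 2.66 (SD, n = 3 each). This event passed the read minimum only through DMSO, with a mean of 276 reads per library there and 19.7 under the drug. The share of all events whose groups do not overlap was not computed. The reads behind it were 42, 82 and 35 for inclusion and 178, 286 and 206 for skipping in DMSO, but 2, 0 and 0 for inclusion and 18, 12 and 27 for skipping under the drug. A count of 0 among 12 and among 27 reads allows up to 25% and 11.1% of the reads, for counting error only. The edgeR adjusted p was 0.276 (0.00623 unadjusted), while the authors' deposited table gives an FDR of 0.000499. A shorter form of this exon, 96 bases from 19494507 to the same end, was counted against the same skipping reads. Its inclusion was 11.6%, 9.04% and 8.15% in DMSO and 10.1%, 0% and 0% with palbociclib, so its groups overlapped. The edgeR adjusted p of the shorter form was 0.571, and the authors' FDR was 0.0221.

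In GINS1 the events share their skipping reads and are not independent of each other. The junction that joins the exon ending at position 25407895 of chromosome 20 to the exon beginning at 25425211 was read 42, 33 and 24 times in DMSO and 2, 4 and 3 times with palbociclib. Against it, the exon of 65 bases at chr20:25413790-25413854 was included at 70.8%, 81.8% and 82.4% in DMSO and 88.3%, 86.1% and 92.6% with palbociclib. The exon of 91 bases at chr20:25418105-25418195 was included at 77.6% ± 5.55 and 89.0% ± 3.88 (SD, n = 3 each). The groups did not overlap for either exon, and the edgeR adjusted p was 0.515 and 0.487. The exon of 99 bases at chr20:25417104-25417202 was included at 19.2%, 21.4% and 20.0% in DMSO and at 42.9%, 63.6% and 25% with palbociclib, on 9 skipping reads in all under the drug. These groups did not overlap either (edgeR adjusted p = 0.556), and without palbociclib replicate 2 the log2 odds ratio of inclusion went from 1.83 to 0.98. The event of the 99 base exon passed the read minimum only through DMSO (mean 49.7 reads per library, and 9.33 with palbociclib). All these levels are against that 1 junction. Events with other skipping junctions were not tested and went in both directions. In DMSO and then palbociclib, the 65 base exon had means of 95.1% and 93.2%, or 91.8% and 100%. The 91 base exon had 98.8% and 95.5%, or 98.2% and 100%, and a further event had a drug library without reads.

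An exon of 122 bases in GINS1, chr20:25419684-25419805, was a minor form in both groups, at 4.44%, 5.63% and 2.61% in DMSO and 2.39%, 0.91% and 1.01% with palbociclib. Its edgeR adjusted p was 0.454, and the authors' deposited table gives it an FDR of 0.0201. The choice between this exon and the 1 at chr20:25420846-25420988 stood at 64.3% ± 9.72 in DMSO and 49.9% ± 13.5 with palbociclib. It had 2 to 5 reads in each drug library, too few to resolve the difference, and passed the read minimum only through DMSO. It was tested all the same (edgeR adjusted p = 0.971). With the second exon beginning at 25420849 instead, the choice stood at 66.4% ± 6.39 and 62.4% ± 33.7 (edgeR adjusted p = 0.995). That event, too, passed only through DMSO. The remaining factors with a tested event showed overlapping groups. In GMNN the choice between 2 exons, chr6:24777222-24777297 and chr6:24780663-24780740, was 24.0% ± 1.45 and 21.4% ± 5.56 for the first. In GINS3 an exon of 117 bases at chr16:58395102-58395218 was included at 12.2% ± 0.52 and 7.64% ± 6.92. In GINS4 an intron of 91 bases was retained at 6.09% ± 0.73 and 6.24% ± 1.20, each value being DMSO and then palbociclib (SD, n = 3 each).

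**Figure D5:**
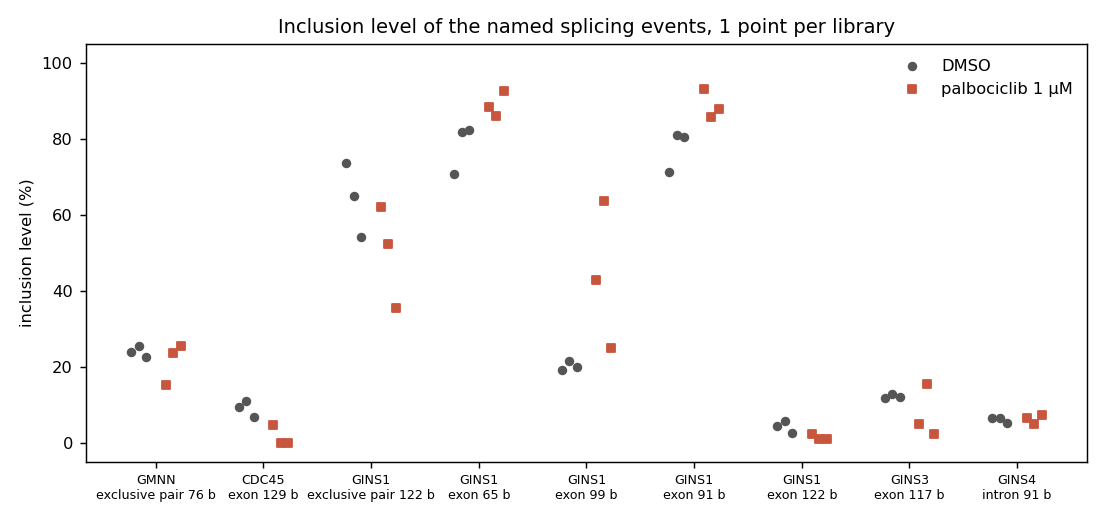
Inclusion level in percent of the 9 named splicing events (labelled by gene and by the length in bases of the exon, of the first exon of an exclusive pair, or of the intron) in 3 DMSO (circles) and 3 palbociclib (squares) libraries. The CDC45 exon and the 65, 91, 99 and 122 base exons of GINS1 separate the groups, but none of the 9 was called by the edgeR test. Events were named for the smallest p or a large difference, which favours separation, and the share of all events that separate was not computed. The 65, 91 and 99 base exons share their skipping reads. The CDC45 exon and the 99 base exon passed the read minimum only through DMSO.

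The cell line was checked against its markers. The luminal epithelial genes KRT8, KRT18, KRT19, EPCAM, ESR1, GATA3, FOXA1 and CDH1 were all expressed, at group means from 43.2 FPKM (ESR1) to 2916 FPKM (KRT19). Of the 8 markers of other cell types, PTPRC, PECAM1, KRT5 and KRT14 have no row in the table, CD68 stayed at or below 0.174 FPKM and COL3A1 at or below 0.52 FPKM, VIM lay between 1.17 and 2.19 FPKM, and COL1A1 between 23.1 and 26.0 FPKM. The groups overlapped for CD68, VIM and COL1A1, but not for COL3A1, at 0.301 to 0.428 FPKM in DMSO and 0.479 to 0.52 FPKM with palbociclib. With quantile normalization COL1A1 was called higher (limma adjusted p = 0.0205). Of the 8 luminal genes 7 were higher with palbociclib in the limma fit, led by KRT8, KRT18 and KRT19 at 147%, 142% and 138% of the DMSO mean (limma adjusted p of 0.000327 or less). EPCAM stood at 90.5% (limma adjusted p = 0.0544, and 0.0191 with quantile normalization). The part of these markers in the results was not tested. Counts in ATAC peaks summed to 12830062 to 18250496 per library.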

How the data were processed

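RNA and ATAC libraries were grouped by their labels. The members and all gene lists were chosen with earlier results of these data known. The submitters' processing notes name fastp 0.23.2, Salmon 1.10.2, STAR 2.7.10b and DESeq2 1.44.0 for RNA, and Bowtie2, Picard and MACS3 for ATAC, without roles, on GRCh38. The authors deposited FPKM per gene. They do not say how many reads stand behind each value. Per the file headers, the authors' deposited DESeq2 table gives log2 changes, p-values, a Wald score and a mean normalized count, which is a signal. Splicing tables hold inclusion and skipping reads, inclusion levels, a difference used as a score, p-values and FDR, per the file headers. For ATAC, the authors ran featureCounts 2.0.6 over 1 shared peak set to obtain raw counts, per the file headers.

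Because FPKM are not counts, log2(FPKM + 1) was fitted in limma 3.58.1 (R 4.3.3) with a mean-variance trend, for genes averaging 0.5 FPKM or more. Peaks (TMM scaling, 0 removed by filterByExpr) and splicing events (inclusion by treatment, with each library as a term) were tested with edgeR 4.0.16. The limma and edgeR p-values were two-sided and Benjamini-Hochberg adjusted over all genes, peaks or events of a type, at 0.05. Those named unadjusted are the exception. The exact permutation p of a ratio is given unadjusted, with the value adjusted over the 6 ratios where stated. Changes are relative to the median gene, as deposited. Quantile normalization gave 2856 lower and 4588 higher genes, in place of 3628 and 3312, and moved the median gene by 0.06 log2. Replicates are labelled biological, and intervals and p-values cover the spread between these libraries. Start sites and promoter sequences are those of RefSeq on GRCh38.p14, and GINS4 has its start from the RefSeq gene table. The RNA, peak and splicing tests were each tried on simulated data, and the promoter search was not.

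All 10 factors are named. Splicing events named were, per factor, the tested event with the smallest p, and any tested event with a difference of at least 10 percentage points. The 5 genes of like pattern needed a symbol and a mean of at least 1 FPKM. Alternatives covered the pseudocount (0.1), filters, normalization, trend, DESeq2 1.42.0 for peaks, windows around starts, a replicate block and leaving out each library.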

Additional observations from a re-analysis of the deposited data

How the results depend on the processing

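All 10 factors stayed lower under each of the 11 RNA alternatives, the 4 peaks within 1 kb of a start under each of the 12 ATAC alternatives, and 0 splicing events were called under each of the 9 splicing alternatives. With a pseudocount of 0.1 the log2 change was -3.18 for ORC1 and -3.85 for CDC45. Among the 43 further genes, the number called higher went from 0 to 3 with quantile normalization (LRWD1, CUL4B and DDB1) and ranged from 0 to 1 when 1 library was left out. The labels do not say whether replicate numbers pair the libraries. Deviations of same-numbered libraries correlated at 0.106, -0.005 and 0.088 for RNA and 0.006, 0.042 and -0.028 for ATAC. Those of differently numbered libraries correlated at -0.139 to 0.051 for RNA and -0.07 to 0.061 for ATAC. So few libraries cannot decide whether they are paired. With the replicate block, 10 factors, 34 further genes and 4 peaks were lower and 0 events were called. The CDT1 to GMNN log2 difference ranged from -0.974 to -0.754 without 1 library, and its exact p within replicate pairs was 0.25, the smallest that 3 pairs can give. The window of 5 kb added a GINS2 peak that was not called (edgeR adjusted p = 0.108).

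Signs turned only in values that were not called. Quantile normalization gave log2 changes of 0.0756 for ORC2, 0.0347 for ORC4, 0.0347 for ORC5 and 0.041 for CUL4A, and DESeq2 gave -0.000546 for the ORC3 peak. Leaving out 1 library gave ranges from -0.117 to 0.102 for ORC2, -0.0648 to 0.0297 for CUL4A and -0.0541 to 0.0851 for FBXO31 in RNA, and from -0.0729 to 0.0591 for ORC3 and -0.0141 to 0.0999 for ORC5 in peaks. The log2 odds ratio of inclusion ranged from -0.430 to 0.0479 for the GMNN exon pair and from -0.0558 to 0.208 for the GINS4 intron. Without 1 library it ranged from 0.977 to 2.35 for the 99 base exon of GINS1, from -5.05 to -1.63 for the CDC45 exon and from -1.86 to -0.346 for the GINS3 exon. The cause was not tested. The depth behind each FPKM is unknown, and the few reads of CDC45 and GINS1 under the drug limit their inclusion levels.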
